A study of Mus musculus with 93 samples.

Results

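The comparison described here is that of the neural retina of wild-type mice at 9 months of age with the same tissue at 3 months, a step within adult life. Its members were 16 RNA sequencing libraries, 8 from 9-month-old and 8 from 3-month-old wild-type (Efemp1+/+) females that had received no treatment, out of 93 libraries in the series. The libraries were chosen by tissue, genotype and age as their labels give them, without use of measured values. Beside them stand wild-type retinas at 17 months (8 libraries), Efemp1ki/ki retinas at 9, 3 and 17 months (8 libraries each) and wild-type posterior eyecups, the eye without lens and retina, at 9 months (8 libraries) and 3 months (6 libraries), all from untreated females. The Efemp1ki/ki mice carry a knock-in of Efemp1 on both alleles and serve as a model of the macular disease Doyne honeycomb retinal dystrophy. The labels name neither the strain nor the mouse behind each library, so p-values measure the spread between libraries, which may in part be technical.

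The mouse retina is a layered nervous tissue dominated by rod photoreceptors, which detect dim light. Cones, bipolar, horizontal, amacrine and ganglion cells process the signal, Mueller glia span the tissue, and microglia and blood vessels lie in its inner layers. By 3 months the retina is fully formed and functional, so a comparison with 9 months spans no developmental stage.

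Transcripts of Gnat1, which encodes rod transducin, ran from 10110 to 12170 CPM (counts scaled to a common library size, here by the trimmed mean of M values, TMM) at 9 months and from 11940 to 13580 at 3 months. Rpe65 of the pigment epithelium stayed between 1.53 and 9.39 CPM at 9 months and between 3.28 and 13.2 at 3 months, so both groups were retina as labelled. Library totals ran from 11243187 to 26518183 estimated counts over the 16 libraries, with a median of 16523300. One 3-month library, replicate 7, stood apart from its group and held more transcripts of the ocular surface than the others. The 19 genes of that epithelium summed to 488 CPM in it, against at most 137 in the other libraries of its group and 92.9 at 9 months. Another, replicate 6 at 3 months, summed to 525 CPM over 35 interferon-induced genes, against at most 330 in any other of the 16 libraries. Libraries also differed in how level depended on the GC content of the gene. This trend averaged -0.0886 ± 0.135 log2 units per 10 percentage points of GC at 9 months and 0.0442 ± 0.0459 at 3 months (SD, n = 8 each, exact permutation p = 0.0177, two-sided).

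Between the ages, 5297 of 17240 genes tested differed at an adjusted p under 0.05 (30.7%; edgeR quasi-likelihood test with Benjamini-Hochberg adjustment), of which 2631 were higher (15.3%) and 2666 lower (15.5%) at 9 months. Most differences were small. The median log2 fold change, 9 over 3 months, was 0.36 among genes that rose, -0.20 among genes that fell and 0.01 over all tested. A log2 fold change of at least 0.5 was reached by 793 of the risers but only 102 of the genes that fell, and one of at least 1 by 110 and 23. On the log2 scale of the authors' TPM values, with a pseudocount of 1, 4881 genes were called and 79.0% of them were higher at 9 months, against 49.7% here. Of all 17240 genes, 3855 were higher and 1026 lower on that scale, and the median log2 fold change was 0.055. Genes that rose had a median GC content of 46.4%, genes that fell 53.04% and all genes 49.5%. With a GC offset for each library 5771 genes were called, and 2141 of the risers and 2368 of the genes that fell were called in the same direction with and without it. Of 583 long intergenic non-coding RNAs tested, 149 rose and 11 fell, and of 551 antisense RNAs 126 rose and 14 fell, whereas protein-coding genes divided into 1992 that rose and 2603 that fell of 14688. Whether antisense reads were kept apart from those of the opposite gene depends on a strand setting that is not given in the sources used here.

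**Figure D1:**
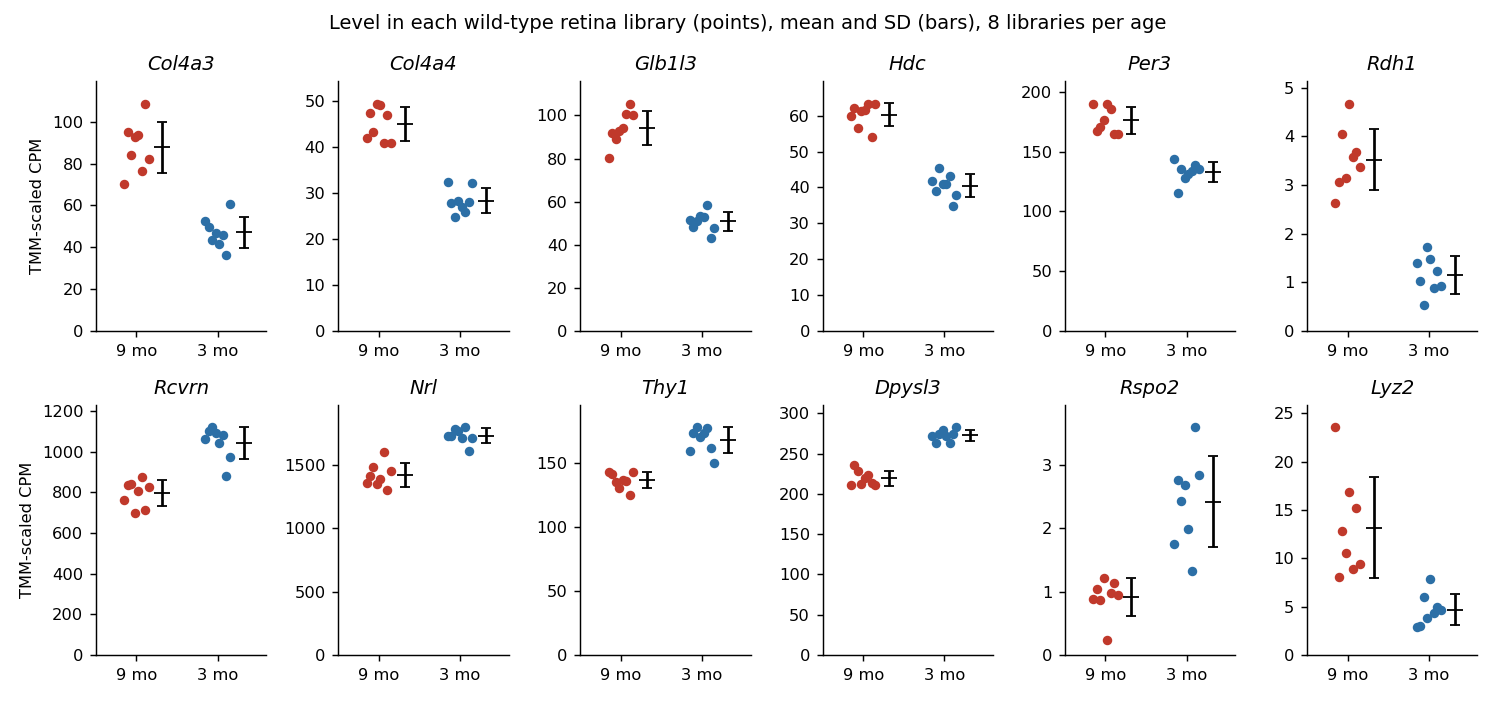
TMM-scaled CPM (vertical axes, from 0) of 12 genes in each wild-type retina library, 9 months left of 3 months. Points are libraries and bars the mean and SD of 8. The ages do not overlap for any of the 12 genes, which were picked from genes of small p-value or large fold, so this follows in part from the choice. Rdh1 ran from 2.63 to 4.67 CPM at 9 months and from 0.536 to 1.73 at 3 months, and Rcvrn from 698 to 875 CPM at 9 months and from 880 to 1119 at 3 months.

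Type IV collagens, the network-forming collagens of basement membranes, were higher at 9 months in all 6 of their genes, and most so in the adult network of the Col4a3, Col4a4 and Col4a5 chains. These genes lie head to head in 3 pairs. By the start sites of the annotation, the 5′ ends of Col4a1 and Col4a2 on chromosome 8 are 21 bases apart, and the genes overlap. The other pairs do not overlap. Col4a3 and Col4a4 on chromosome 1 start 72 bases apart, and Col4a5 and Col4a6 on the X chromosome 1309 bases apart. The start regions of 3 of them are shown because partners of a pair moved in the same direction. Each sequence runs from 250 bases before the gene's start to 50 after it, on the strand of the gene, from RefSeq on GRCm38.p6. Col4a1 lies on the minus strand at chr8:11312777-11313076, Col4a2 on the plus strand at chr8:11312555-11312854 and Col4a4 on the minus strand at chr1:82586800-82587099. Capitals in the first 2 mark the 78 bases that both windows share, read from opposite strands, and the third is shown without capitals.
Col4a1: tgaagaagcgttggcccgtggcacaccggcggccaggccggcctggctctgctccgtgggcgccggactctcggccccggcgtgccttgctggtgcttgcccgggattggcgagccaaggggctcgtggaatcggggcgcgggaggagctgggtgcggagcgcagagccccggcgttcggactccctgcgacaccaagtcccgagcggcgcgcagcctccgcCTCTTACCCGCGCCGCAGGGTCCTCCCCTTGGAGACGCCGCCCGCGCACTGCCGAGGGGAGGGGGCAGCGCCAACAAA
Col4a2: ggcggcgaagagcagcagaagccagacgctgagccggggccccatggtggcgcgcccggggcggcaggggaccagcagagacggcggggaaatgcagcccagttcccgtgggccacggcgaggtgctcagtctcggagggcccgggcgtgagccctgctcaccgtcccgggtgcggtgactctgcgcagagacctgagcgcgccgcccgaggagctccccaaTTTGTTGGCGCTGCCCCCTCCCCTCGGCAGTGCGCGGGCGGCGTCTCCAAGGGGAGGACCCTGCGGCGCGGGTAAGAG
Col4a4: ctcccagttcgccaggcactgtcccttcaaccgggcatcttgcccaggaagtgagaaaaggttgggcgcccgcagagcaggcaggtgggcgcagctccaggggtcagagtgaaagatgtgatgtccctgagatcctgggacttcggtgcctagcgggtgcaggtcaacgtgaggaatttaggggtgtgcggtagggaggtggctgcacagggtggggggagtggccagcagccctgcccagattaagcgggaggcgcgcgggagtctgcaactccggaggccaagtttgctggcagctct
The GC content of these windows was 74.0%, 73.7% and 63.3%, with 37, 33 and 14 CG dinucleotides.

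Col4a3 (ENSMUSG00000079465.8, chromosome 1, 82586921 to 82722059 in GRCm38) measured 70.1, 88.2 and 109 CPM at 9 months (lowest, median and highest of 8 libraries), against 36.3, 46.3 and 60.7 at 3 months. Every 9-month library lay above every 3-month library, with a log2 fold change of 0.90 ± 0.10 (SE, adjusted p = 7.91e-09). Col4a4 (ENSMUSG00000067158.9, chromosome 1, 82448423 to 82586849) ran 40.8, 45.0 and 49.3 CPM at 9 months, against 24.8, 27.9 and 32.4 at 3 months (0.67 ± 0.07, adjusted p = 2.32e-09). Col4a5 (ENSMUSG00000031274.16, X chromosome, 141475385 to 141689234) ran 39.0, 47.8 and 53.3 CPM at 9 months, against 27.6, 30.9 and 32.9 at 3 months (0.61 ± 0.07, adjusted p = 2.10e-08). Neither of them overlapped between the ages. Genes whose non-overlap in wild type is stated were picked by p-value or fold, which favours it. The share of all genes tested that did not overlap is not given. Col4a6, the partner of Col4a5, was less abundant in these libraries at 8.64, 10.7 and 15.6 CPM at 9 months, against 6.22, 7.79 and 9.47 at 3 months (0.55 ± 0.13, adjusted p = 0.000881). Its groups overlapped, with 5 of 8 9-month libraries above all 3-month ones. Col4a1 and Col4a2, whose chains form the general network of vessel walls and most other basement membranes, rose less. Col4a1 reached 44.3, 54.5 and 62.8 CPM at 9 months, against 34.9, 43.0 and 58.0 at 3 months (0.34 ± 0.08, adjusted p = 0.00180), and Col4a2 43.1, 53.03 and 65.8 CPM at 9 months, against 35.8, 41.4 and 57.7 at 3 months (0.28 ± 0.09, adjusted p = 0.0188). The groups overlapped for both, and Col4a2, with 0.23 and 0.24, did not pass without replicate 1 at 9 months or replicate 4 at 3 months.

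Over all 20 genes of the type IV collagen and basement membrane list 7 rose and 1 fell (15.3% and 15.5% over all genes tested). The median log2 fold change was 0.17. Agrn, encoding agrin, was the other that rose. Sparc, which encodes a collagen-binding matricellular protein, fell to 143, 154 and 159 CPM at 9 months, against 173, 182 and 223 at 3 months, without overlap (-0.31 ± 0.05, adjusted p = 1.03e-05). Genes of fibrillar collagens and stroma moved the same way, with 7 of 18 higher, 0 lower and a median of 0.37. Col12a1, which coats collagen fibrils, averaged 27.0 ± 5.26 CPM at 9 months and 17.3 ± 2.67 at 3 months (SD, n = 8 each; 0.65 ± 0.11, adjusted p = 1.16e-05). Col6a1, of microfibrillar type VI collagen, averaged 137 ± 21.95 CPM at 9 months and 79.5 ± 19.2 at 3 months (0.79 ± 0.16, adjusted p = 0.000254). Col5a1 and Eln, which encodes elastin, rose by 0.62 ± 0.12 and 0.44 ± 0.08, with adjusted p-values of 0.000162 and 5.76e-05. Myoc, a marker of the iris and ciliary region, was at 0.190 to 4.32 CPM at 9 months and 0.271 to 0.981 at 3 months. The 11 genes of the iris and ciliary body list summed to 335 to 395 CPM at 9 months and 295 to 351 at 3 months, and their part in the collagen differences was not tested.

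The age difference in these genes was set beside that of the wild-type eyecup, in a fit of 30 libraries. In the eyecup 112 of 18378 genes were called at an adjusted p under 0.05 (0.609%), 73 of them lower at 9 months (0.397%), and 213 (1.16%) changed differently in the retina than in the eyecup. Eyecups varied more, and carried retinal transcripts, with the rod gene Rcvrn between 18.7 and 353 CPM at 9 months and between 14.5 and 115 at 3 months. The retina's age difference minus the eyecup's had a median of -1.13 over 25 rod genes and -0.88 over 20 ganglion cell genes. Over all genes tested it was -0.05. No gene of these 2 lists passed in that test. The part of this shift in the eyecup and tissue differences below was not tested. Col4a3, Col4a4 and Col4a5 were among the 213. Col4a4, for instance, had 27.9, 35.2 and 60.5 CPM in eyecups at 9 months, against 41.6, 46.9 and 65.1 at 3 months (log2 fold change -0.41 ± 0.12, adjusted p = 0.122), so that the retina's change exceeded it by 1.05 ± 0.17 (adjusted p = 0.00391). Col12a1, higher in the retina as given above, fell in the eyecup by 1.08 ± 0.16 (adjusted p = 0.000405), and the tissues differed by 1.70 ± 0.22 (adjusted p = 0.000183). Col1a1, of type I collagen, rose in the retina by 0.66 ± 0.16 (adjusted p = 0.00167) and fell in the eyecup by 0.98 ± 0.20 (adjusted p = 0.0175). A2m, encoding the protease inhibitor alpha-2-macroglobulin, rose in the retina by 0.46 ± 0.18 (adjusted p = 0.0423) and fell in the eyecup by 1.64 ± 0.19 (adjusted p = 7.93e-06), a difference of 2.08 ± 0.26 (adjusted p = 0.000181). The rise of A2m in the retina failed the threshold in 15 of 28 other settings (0.41 to 0.46). A2m, Col12a1, Col4a4 and Col4a5 were among the 5 genes with the smallest p-values of the tissue difference.

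Single genes with the smallest p-values among risers came from diverse functions. Glb1l3 (ENSMUSG00000031966.7, chromosome 9, 26817953 to 26860890), of the beta-galactosidase family, had 80.3, 93.4 and 105 CPM at 9 months, against 43.1, 51.3 and 58.7 at 3 months (0.89 ± 0.06, adjusted p = 1.06e-15). Hdc (ENSMUSG00000027360.5, chromosome 2, 126593667 to 126619299), the histidine decarboxylase that makes histamine, had 54.1, 61.4 and 63.3 CPM at 9 months, against 34.9, 40.9 and 45.6 at 3 months (0.57 ± 0.06, adjusted p = 8.19e-10). Smug1 (ENSMUSG00000036061.9, chromosome 15, 103153307 to 103158002), a uracil-DNA glycosylase of base excision repair, had 161, 172 and 186 CPM at 9 months, against 107, 118 and 123 at 3 months (0.57 ± 0.05, adjusted p = 1.14e-12). None of the 3 overlapped between the ages, which follows in part from their choice by small p-value. Fndc1, which encodes a fibronectin type III domain protein, and Tnxb, which encodes the matrix protein tenascin-X, rose by 0.85 ± 0.07 and 0.90 ± 0.10, with adjusted p-values of 1.32e-12 and 1.25e-09. Amy1, an amylase gene with near-identical copies that may share its reads, rose by 0.71 ± 0.06 (adjusted p = 1.82e-13).

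Several large rises were in genes of low level. Rdh1 (ENSMUSG00000089789.1, chromosome 10, 127759721 to 127768297), a retinol dehydrogenase, had 2.63, 3.47 and 4.67 CPM at 9 months, against 0.536, 1.13 and 1.73 at 3 months (1.57 ± 0.18, adjusted p = 3.73e-09), without overlap. Csrp3, encoding the muscle LIM protein, had 6.73, 8.498 and 10.8 CPM at 9 months, against 1.80, 3.34 and 4.44 at 3 months (1.39 ± 0.13, adjusted p = 5.69e-11). The groups did not overlap either for Lyz2, the lysozyme gene of macrophages and related cells, at 8.07, 11.7 and 23.5 CPM at 9 months, against 2.86, 4.52 and 7.84 at 3 months (1.48 ± 0.29, adjusted p = 0.000162). Adam1b and Cdh19, which encode a sperm-surface metalloprotease and a cadherin of Schwann cells, rose by 1.54 ± 0.17 and 1.51 ± 0.22, and Ppp1r3a, a glycogen-targeting phosphatase subunit, by 1.58 ± 0.29, the 3 of them averaging 0.584 to 1.05 CPM at 3 months. Ly75, an endocytic receptor of dendritic cells, rose by 1.09 ± 0.12 (adjusted p = 9.59e-10). Pnisr, an SR-related protein gene, rose by 0.60 ± 0.06, Clk1 and Clk4, kinases of SR splicing factors, by 0.54 ± 0.06 and 0.48 ± 0.06, and Ccnl1, encoding cyclin L1, by 0.33 ± 0.04 (largest adjusted p = 2.74e-08). Taf4b, a subunit gene of the general transcription factor TFIID, rose by 0.73 ± 0.08 (adjusted p = 1.43e-09).

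**Figure D2:**
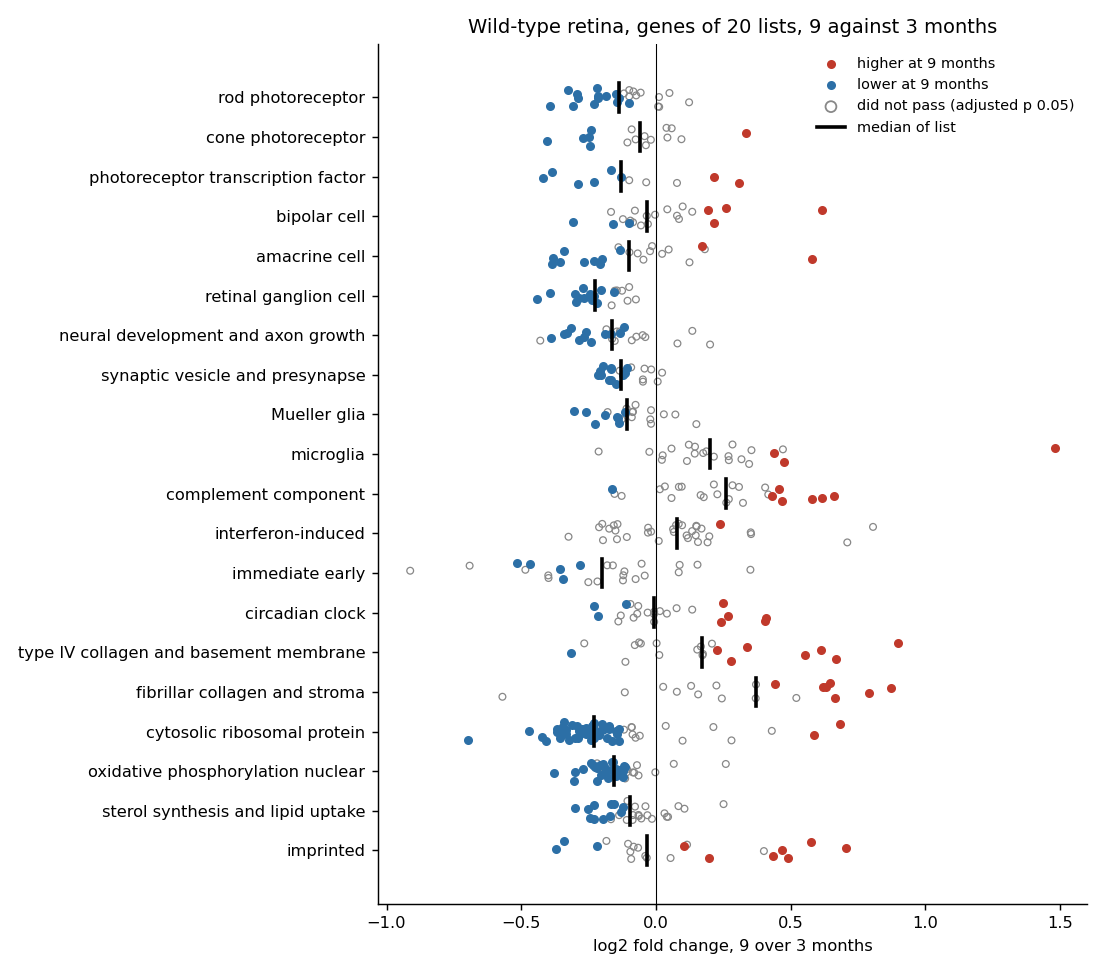
Log2 fold change, 9 over 3 months (horizontal axis), of each tested gene in 20 lists. Red points rose and blue points fell at an adjusted p under 0.05, open points did not pass, and black bars are list medians, from -0.23 for cytosolic ribosomal proteins to 0.37 for fibrillar collagens and stroma. Over all genes tested 15.3% rose and 15.5% fell.

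Rod transcripts were lower at 9 months. Of 25 genes of the rod list 14 fell and 0 rose, where 15.5% and 15.3% of all genes tested did. The median log2 fold change was -0.14, against 0.01 over all genes tested. On the log2(TPM + 1) scale 10 were lower and 0 higher, with a median of -0.04. There 1026 of all 17240 genes tested were lower and 3855 higher, with a median of 0.055. In bulk tissue, fewer cells of a type and less RNA per cell cannot be told apart. Nrl, the transcription factor that specifies rods, had 1305, 1399 and 1605 CPM at 9 months, against 1611, 1731 and 1796 at 3 months (-0.29 ± 0.04, adjusted p = 4.69e-07). Rcvrn, which encodes the calcium sensor recoverin, had 698, 817 and 875 CPM at 9 months, against 880, 1072 and 1119 at 3 months (-0.39 ± 0.06, adjusted p = 1.62e-06). Neither overlapped between the ages. Prph2 and Rom1, which encode partner proteins of the outer segment disc rim, fell by 0.31 ± 0.05 and 0.29 ± 0.05, and Rbp3, the retinoid-binding protein secreted by photoreceptors, by 0.34 ± 0.05 (largest adjusted p = 4.89e-05).

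Photoreceptor genes did not all fall. In the outer segment and cilium list 5 of 18 genes rose and 7 fell, where 15.3% and 15.5% of all genes tested did. Rpgr and Rpgrip1, which encode a regulator of the connecting cilium and its binding partner, rose by 0.60 ± 0.10 and 0.37 ± 0.05, whereas Cdhr1 and Prom1, which encode proteins of nascent discs, fell by 0.25 ± 0.05 and 0.18 ± 0.04 (largest adjusted p = 0.000678). Of 17 ribbon synapse genes 4 rose and 7 fell, with Cacna1f, the calcium channel of photoreceptor terminals, 0.28 ± 0.05 higher and Slc17a7, the vesicular glutamate transporter, 0.25 ± 0.05 lower (adjusted p = 2.09e-05 and 0.000264). Of 16 cone genes 5 fell and 1 rose. The opsin genes Opn1sw and Opn1mw both fell by 0.24, with SEs of 0.06 and 0.07 and adjusted p-values of 0.00227 and 0.00358. Opn1sw had 329, 369 and 421 CPM at 9 months, against 403, 450 and 476 at 3 months, with some overlap. Arr3, encoding cone arrestin, was the one that rose, with 259, 316 and 359 CPM at 9 months, against 207, 231 and 370 at 3 months (0.33 ± 0.08, adjusted p = 0.00199). Its highest value of all 16 was in the 3-month replicate 7. Among photoreceptor transcription factor genes 6 of 11 fell, among them Prdm1 and Esrrb (-0.42 ± 0.09 and -0.39 ± 0.08), and 2 rose, Samd11 and Neurod1 (0.31 ± 0.07 and 0.22 ± 0.06). Neurod1 did not pass with the GC offset, at 0.15. With the GC offset only 2 outer segment and cilium genes rose and 8 fell, and 4 and 6 ribbon synapse genes. There 1 cone gene rose and 7 fell, and 1 and 6 of these transcription factor genes, where 15% and 18.5% of all genes tested did. On the log2(TPM + 1) scale 5 outer segment and cilium genes were higher and 5 lower, and 6 and 5 ribbon synapse genes. There 3 cone genes were higher and 4 lower, and 3 and 4 of these transcription factor genes. Among all 17240 genes tested 3855 were higher and 1026 lower on that scale.

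Retinal ganglion cells, the output neurons whose axons form the optic nerve, had 13 of 20 marker genes lower and 0 higher. Their median was -0.22 and no gene was above 0. Over all genes tested 15.5% fell and 15.3% rose. Thy1, a surface glycoprotein gene of these cells, had 125, 136 and 143 CPM at 9 months, against 150, 171 and 177 at 3 months (-0.30 ± 0.06, adjusted p = 7.36e-05). Nefl, encoding the light neurofilament chain, had 333, 396 and 426 CPM at 9 months, against 443, 459 and 522 at 3 months (-0.27 ± 0.05, adjusted p = 0.000108). Neither overlapped. Pou4f1, a transcription factor of ganglion cells, had 19.5, 26.5 and 27.9 CPM at 9 months, against 27.6, 29.95 and 33.5 at 3 months (-0.24 ± 0.06, adjusted p = 0.00230), with slight overlap. Genes of neural development and axon growth fell too, 12 of 25 with 0 higher (median -0.16). Dpysl3 (ENSMUSG00000024501.19, chromosome 18, 43320979 to 43438286), a collapsin response mediator protein of growing axons, had 211, 216 and 236 CPM at 9 months, against 264, 273 and 283 at 3 months (-0.31 ± 0.03, adjusted p = 1.43e-09). Basp1 and Sox4, a growth cone protein gene and a transcription factor gene of immature neurons, fell by 0.33 ± 0.06 and 0.34 ± 0.07 (adjusted p = 1.34e-05 and 0.000294). Of 20 synaptic vesicle and presynapse genes 12 fell and 0 rose, all by small amounts. On the log2(TPM + 1) scale 6 ganglion cell genes and 5 synaptic vesicle genes passed, all lower, where 1026 of all 17240 genes tested were lower.

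Of 21 amacrine cell genes 9 fell and 2 rose, where 15.5% and 15.3% of all genes tested did. On the log2(TPM + 1) scale 1 was lower and 2 higher, where 1026 and 3855 of all 17240 genes tested were. Slc32a1, the inhibitory vesicular transporter, fell by 0.38 ± 0.06 (adjusted p = 6.43e-06), and Pax6, a master regulator of eye development, rose by 0.17 ± 0.03 (adjusted p = 6.37e-05). Bipolar cell genes divided into 4 higher and 3 lower of 22, close to the shares over all genes (15.3% and 15.5%), and into 7 and 0 on the log2(TPM + 1) scale. They were led by Pcp2, a modulator of G protein signalling, with 36.99, 48.2 and 54.1 CPM at 9 months, against 26.8, 28.1 and 44.6 at 3 months (0.62 ± 0.10, adjusted p = 1.33e-05). The value of 44.6 stood well above the 33.5 of the next 3-month library. Trpm1, the transduction channel of ON bipolar cells, and Rgs11, which speeds their response, rose by 0.22 ± 0.06 and 0.26 ± 0.07 (adjusted p = 0.00572 and 0.00199). Mueller glia had 8 of 21 genes lower and 0 higher, with Sox9 at -0.26 ± 0.06 and Slc1a3, the glutamate transporter, at -0.14 ± 0.04 (adjusted p = 0.000516 and 0.00470). On the log2(TPM + 1) scale 4 were higher and 2 lower, with a median of 0.01, against 0.055 over all genes tested. Lhx2, Rax and Vim, called lower here, were at 0.01, 0.03 and 0.01 there.

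Microglial and complement genes mostly had positive log2 fold changes, few of them past the threshold. Of 22 microglia genes 20 had a positive log2 fold change and 3 passed, Lyz2, Ctss and Cd68, with a list median of 0.20. The 3 that passed are no larger a share than the 15.3% of all genes tested that rose. Ctss, encoding the lysosomal protease cathepsin S, had 11.9, 15 and 16.8 CPM at 9 months, against 9.07, 10.8 and 12.2 at 3 months (0.44 ± 0.09, adjusted p = 0.000137). The list summed to 129, 145 and 160 CPM at 9 months, against 109, 120 and 129 at 3 months. Lyz2 is shared with other macrophages, and Tmem119, which is more specific to microglia, measured 1.503 to 3.05 CPM at 9 months and 0.893 to 2.80 at 3 months. Among 25 complement components and regulators 6 rose and 1 fell (15.3% and 15.5% over all genes tested), with a median of 0.26. Cfp, encoding properdin, which stabilises the alternative pathway convertase, had 16.5, 21.0 and 28.2 CPM at 9 months, against 14.1, 15.4 and 18.7 at 3 months (0.47 ± 0.09, adjusted p = 0.000145). Cd46, a membrane regulator of complement, rose by 0.66 ± 0.09 (adjusted p = 2.06e-07), C1s1, the protease of the classical pathway, by 0.62 ± 0.15, Masp2 of the lectin pathway by 0.58 ± 0.18 and C8g of the terminal complex by 0.43 ± 0.11 (largest adjusted p = 0.0132). C4b, the cleaved component of the classical and lectin pathways, had 16.5, 23.8 and 37.1 CPM at 9 months, against 14.0, 18.5 and 24.6 at 3 months (0.46 ± 0.18, adjusted p = 0.0490). It failed the threshold in 16 of 28 other settings. Vtn, encoding vitronectin, was the one that fell (-0.16 ± 0.05, adjusted p = 0.00628).

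Cfb (ENSMUSG00000090231.10, chromosome 17, 34856374 to 34862518), complement factor B of the alternative pathway and the subject of the study, did not pass. It had 6.30, 7.31 and 9.64 CPM at 9 months, against 5.68, 7.15 and 8.87 at 3 months (0.09 ± 0.08, adjusted p = 0.462). Efemp1 itself (ENSMUSG00000020467.15, chromosome 11, 28853204 to 28926743), which encodes fibulin-3, had 59.8, 68.0 and 78.1 CPM at 9 months, against 50.9, 61.8 and 69.0 at 3 months (0.17 ± 0.09, adjusted p = 0.130). In the fit of only the groups compared it passed, at 0.19. Interferon-induced genes showed 1 of 34 higher, Stat2 (0.24 ± 0.06, adjusted p = 0.00270), with a median of 0.08. Without the 3-month replicate 6, the library with the high interferon-induced sum, 3 passed, the median was 0.20 and 32 of 34 were above 0, against 21 with it. In the antigen presentation list 3 of 25 rose and 1 fell. Of this list and of the interferon-induced list, smaller shares passed than the 15.3% higher and 15.5% lower of all genes tested. H2-K1, a class I histocompatibility gene, had 35.0, 40.5 and 47.2 CPM at 9 months, against 27.9, 31.3 and 40.8 at 3 months (0.30 ± 0.07, adjusted p = 0.000835). Without replicate 6 at 3 months 5 genes of that list rose.

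Of 22 clock genes 5 were higher and 3 lower, near the shares over all genes tested (15.3% and 15.5%), so the count sets the list little apart and single genes are described. Per3 (ENSMUSG00000028957.12, chromosome 4, 151003652 to 151044665), a period gene of the feedback loop, had 164, 173 and 190 CPM at 9 months, against 116, 135 and 144 at 3 months (0.41 ± 0.06, adjusted p = 1.81e-06). Per2 had 35.8, 41.8 and 51.5 CPM at 9 months, against 29.97, 32.3 and 33.7 at 3 months (0.41 ± 0.08, adjusted p = 0.000210), and neither overlapped. Ciart, a repressor of the loop, had 14.2, 16.5 and 19.9 CPM at 9 months, against 10.4, 14.2 and 18.2 at 3 months, with wide overlap (0.25 ± 0.09, adjusted p = 0.0244). It did not pass without replicate 5 or 6 at 9 months or replicate 2 or 5 at 3 months (0.19 to 0.22). Nr1d2, which encodes the nuclear receptor REV-ERB beta, rose by 0.27 ± 0.07, and Rorb and Nfil3 fell by 0.23 ± 0.07 and 0.21 ± 0.06 (largest adjusted p = 0.0116). The labels give no time of day of tissue collection. The start regions of Per3 (minus strand, chr4:151044616-151044915) and Ciart (minus strand, chr3:95882179-95882478) are shown because they hold repeats of motifs through which clock factors are known to act, in capitals, from RefSeq on GRCm38.p6.
Per3: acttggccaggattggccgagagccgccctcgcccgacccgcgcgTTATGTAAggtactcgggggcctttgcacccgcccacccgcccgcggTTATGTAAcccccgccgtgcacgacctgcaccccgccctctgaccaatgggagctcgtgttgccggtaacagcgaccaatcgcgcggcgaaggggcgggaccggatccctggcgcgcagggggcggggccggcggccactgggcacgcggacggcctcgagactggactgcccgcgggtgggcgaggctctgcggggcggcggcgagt
Ciart: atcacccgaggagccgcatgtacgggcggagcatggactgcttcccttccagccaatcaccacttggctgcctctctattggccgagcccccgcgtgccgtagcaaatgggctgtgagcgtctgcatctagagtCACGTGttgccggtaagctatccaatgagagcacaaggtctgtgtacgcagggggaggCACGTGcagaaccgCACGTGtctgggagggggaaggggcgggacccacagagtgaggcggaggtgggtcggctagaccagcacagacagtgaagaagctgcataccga
The capitals in Per3 mark 2 matches, on either strand, to the D-box TTATGTAA, at positions -205 and -158 from the gene's start. At least 2 such matches occurred in 0.0213% of 32851 mouse promoters of the same length, and at least 1 in 0.938%. In Ciart they mark 3 matches to the E-box CACGTG, at -116, -58 and -44, and 0.0883% of the promoters held at least 3, while 7.15% held at least 1. The regions were picked for holding these motifs, so the low shares follow from that choice and say nothing of the age difference. Motif matches in the other clock genes are not given here. A match describes the sequence and shows no binding.

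Genes of protein synthesis and nuclear-encoded energy metabolism were widely lower. Of 60 cytosolic ribosomal protein genes 46 fell and 2 rose, with a median of -0.23. Over all genes tested 15.5% fell and 15.3% rose. Rpl29 averaged 86.7 CPM at 9 months and 111 at 3 months (-0.36 ± 0.06, adjusted p = 4.60e-06), and Rpl19 159 CPM at 9 months and 195 at 3 months (-0.29 ± 0.05, adjusted p = 1.24e-05). Ribosomal protein genes have many processed copies in the genome that can take reads. Of 40 nuclear genes of oxidative phosphorylation 28 fell and 0 rose, with a median of -0.16, such as Atp5a1, of the ATP synthase, at 546 CPM at 9 months and 635 at 3 months (-0.22 ± 0.04, adjusted p = 8.98e-05), and Cox4i1, of cytochrome c oxidase, at 154 CPM at 9 months and 185 at 3 months (-0.27 ± 0.06, adjusted p = 0.000401). Of 22 glycolysis genes 8 fell and 1 rose, with Hk1 and Pkm lower by 0.20 ± 0.04 and 0.23 ± 0.05. None of 9 mitochondrially encoded genes passed, with 8 above 0 and a median of 0.12. Their direction depended on the setting. With the GC offset 2 of the 9 fell and the median was -0.12, and on the log2(TPM + 1) scale it was -0.04. With the GC offset, 48 ribosomal and 30 oxidative phosphorylation genes fell, where 18.5% of all genes tested did. On the log2(TPM + 1) scale 20 and 8 fell, where 1026 of all 17240 genes tested did. In Efemp1ki/ki retinas neither list had a gene past the threshold, with medians of -0.04 and -0.03.

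Sterol synthesis and lipid uptake had 11 of 30 genes lower and 0 higher (15.5% and 15.3% over all genes tested). They included Srebf2, the regulator of the pathway, at -0.23 ± 0.04, Dhcr7, of the last step to cholesterol, at -0.25 ± 0.05, and Fasn, the fatty acid synthase, at -0.23 ± 0.05 (largest adjusted p = 0.000288). In the unfolded protein response 9 of 28 fell and 1 rose. Ddit3 and Atf4, stress transcription factors, fell by 0.18 ± 0.06 and 0.19 ± 0.06 (adjusted p = 0.0121 and 0.0126), and Ern1, the sensor IRE1, rose by 0.14 ± 0.05 (adjusted p = 0.0209). On the log2(TPM + 1) scale 3 genes of this list were higher and 1 lower, where 3855 and 1026 of all 17240 genes tested were. Ddit3 and Atf4 did not pass there (-0.06 for both). Of 24 immediate early genes 5 fell and 0 rose (15.5% and 15.3% over all genes tested). Jun, a subunit of the AP-1 factor, had 33.6, 38.3 and 43.3 CPM at 9 months, against 43.5, 49.3 and 52.97 at 3 months, without overlap (-0.36 ± 0.06, adjusted p = 4.10e-06). With the GC offset 2 of these genes fell and 1 rose, where 18.5% and 15% of all genes tested did. The log2(TPM + 1) scale gave 1 lower and 3 higher.

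Among imprinted genes 7 of 21 rose and 3 fell (15.3% and 15.5% over all genes tested). Maternally expressed non-coding RNAs of the Dlk1-Dio3 domain were among those that rose, with Meg3 at 0.58 ± 0.09, Mirg at 0.71 ± 0.11 and Rian at 0.47 ± 0.08 (largest adjusted p = 1.33e-05). Rian did not pass with the GC offset, at 0.17. Peg3, a paternally expressed zinc finger gene, averaged 495 CPM at 9 months and 353 at 3 months (0.49 ± 0.05, adjusted p = 3.73e-09), and Peg10, also paternally expressed, fell by 0.37 ± 0.08 (adjusted p = 0.000462).

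Several genes of low level fell by large folds. Rspo2, an R-spondin that amplifies Wnt signals, had 0.231, 0.960 and 1.22 CPM at 9 months, against 1.33, 2.57 and 3.60 at 3 months (-1.39 ± 0.20, adjusted p = 1.04e-06). Tmem26, encoding a membrane protein, had 0.215, 0.827 and 0.983 CPM at 9 months, against 1.249, 1.77 and 2.67 at 3 months (-1.28 ± 0.22, adjusted p = 2.27e-05). Otop3, an otopetrin proton channel gene, had 2.29, 3.16 and 4.74 CPM at 9 months, against 4.76, 5.76 and 6.31 at 3 months (-0.80 ± 0.14, adjusted p = 2.02e-05). Dnaic2, an axonemal dynein chain gene, had 1.65, 2.33 and 2.93 CPM at 9 months, against 3.55, 4.17 and 6.27 at 3 months (-0.95 ± 0.13, adjusted p = 4.70e-07). None of the 4 overlapped between the ages, but they too were picked for small p-values, and the share over all genes tested is not given. Fzd10, a Wnt receptor gene, fell by 0.52 ± 0.09 and Mycn, the neural Myc gene, by 0.57 ± 0.10, as did Itga6, a laminin receptor gene, by 0.52 ± 0.10 (largest adjusted p = 8.55e-05). Pdlim1, Ubxn10, Pcsk5, Tmem160 and Bola1 fell by 0.53 to 0.90.

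Keratins of the ocular surface also fell by large folds, but none of these calls held without 1 of the 3-month libraries. Krt6a had 0.404, 1.84 and 5.88 CPM at 9 months, against 2.21, 4.71 and 44.7 at 3 months (-2.23 ± 0.70, adjusted p = 0.0135), and the 44.7 came from replicate 7. The ocular surface list had 5 of 15 genes lower (15.5% over all genes tested), with a median of -1.43. Without replicate 7 at 3 months none of them passed and the median was -0.70. Krt6a, at -1.29, and Krt15, Krt4, Krt6b and Trim29, at -0.77 to -1.58, all failed the threshold without it. Krt4, Krt6b and Trim29 also failed it when any of several other single libraries was left out. Without the libraries that stand apart 5997 genes were called in all.

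**Figure D3:**
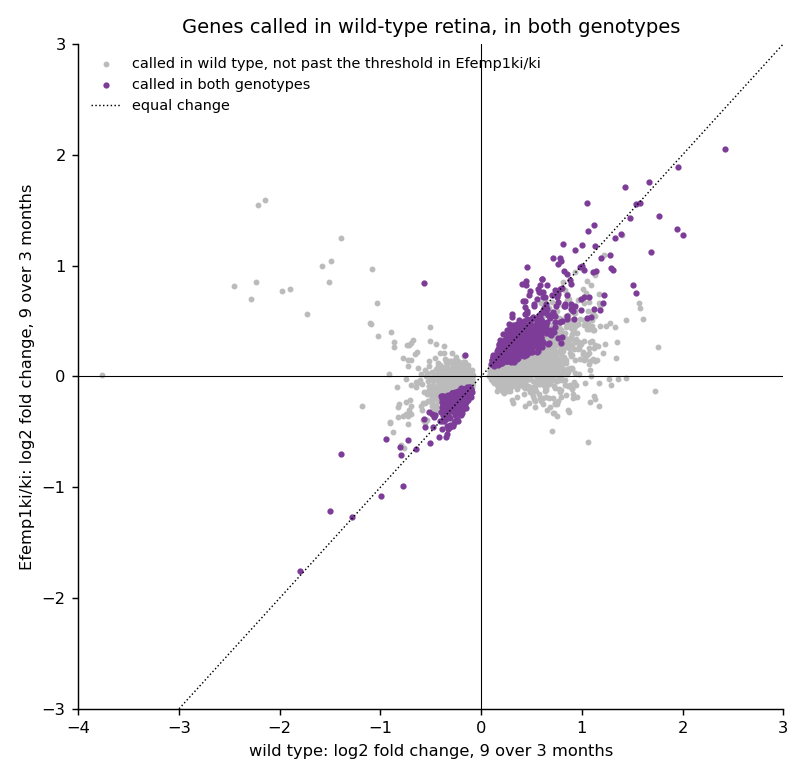
Log2 fold change, 9 over 3 months, of the genes called in wild-type retina, in Efemp1ki/ki retina (vertical axis) against wild-type retina (horizontal axis). Purple points passed in both genotypes (648 higher, 362 lower and 2 in opposite directions), grey points did not pass in Efemp1ki/ki, and the dotted line marks equal change. Most points lie on the same side of 0 in both.

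Efemp1ki/ki retinas at the same ages provide a set of libraries that shares none with the wild type. There 1464 genes were called (8.49%), 882 higher (5.12%) and 582 lower (3.38%) at 9 months. With the GC offset the balance turned, with 1110 higher and 1406 lower (44.1% higher). Called higher in both genotypes were 648 genes, which is 73.5% of the Efemp1ki/ki risers and 24.6% of the wild-type risers. Called lower in both were 362, which is 62.2% of the Efemp1ki/ki genes that fell and 13.6% of those in wild type. Of the wild-type risers 89.4% had a positive log2 fold change in Efemp1ki/ki retinas, against 50.9% of all genes tested, and of the wild-type genes that fell 85.8% had a negative one, against 49.1%. Their medians in Efemp1ki/ki were 0.15 and -0.07. Fam46b and Acaa2 rose in Efemp1ki/ki (0.84 ± 0.23 and 0.19 ± 0.06) and fell in wild type (-0.56 ± 0.22 and -0.16 ± 0.06). The wild-type decreases failed the threshold in 18 and 14 of 28 other settings.

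Among the genes described above, Glb1l3 rose by 0.83 ± 0.06 in Efemp1ki/ki, Hdc by 0.76 ± 0.06, Rdh1 by 1.57 ± 0.17, Lyz2 by 1.43 ± 0.29 and Col4a4 by 0.55 ± 0.07. Col4a4 had 36.02, 50.3 and 54.7 CPM in Efemp1ki/ki retinas at 9 months, against 29.5, 33.7 and 35.3 at 3 months, without overlap. Rcvrn fell by 0.23 ± 0.06 there (adjusted p = 0.00738), to 745, 816 and 849 CPM at 9 months, against 908, 939 and 1054 at 3 months, without overlap. Col4a6, Col4a1 and Col4a2 did not pass there (0.33 ± 0.13, 0.22 ± 0.08 and 0.16 ± 0.09). By list, 5 of 25 rod genes, 7 of 20 ganglion cell genes and 11 of 24 immediate early genes fell, against 3.38% of all genes. Of complement genes 12 of 25, of interferon-induced genes 15 of 34 and of antigen presentation genes 12 of 25 rose, against 5.12% of all genes. The interferon-induced list summed to 311, 358 and 674 CPM in Efemp1ki/ki retinas at 9 months, against 276, 284 and 337 at 3 months, and the part of the highest library in these counts was not tested. C4b rose by 0.99 ± 0.18 (adjusted p = 0.000228).

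A test of whether the age difference itself changed with genotype called 3 genes (0.0174%), while 2653 had an unadjusted p under 0.05. Asun, which encodes a subunit of the Integrator complex, had 70.2, 77.6 and 84.0 CPM at 9 months, against 63.7, 73.7 and 83.7 at 3 months in Efemp1ki/ki (0.06 ± 0.04). In wild type it had 79.3, 82.9 and 87.0 CPM at 9 months, against 60.7, 63.3 and 69.1 at 3 months (0.37 ± 0.04), a difference of -0.31 ± 0.06, Efemp1ki/ki minus wild type (adjusted p = 0.0281). The others were the predicted genes Gm43681 (-0.90 ± 0.17) and 3110035E14Rik (-1.11 ± 0.22). DESeq2 called 14 genes, limma voom 356 and the fit with the GC offset 0. No interferon-induced, complement, ribosomal or oxidative phosphorylation gene of the lists was among the 3.

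**Figure D4:**
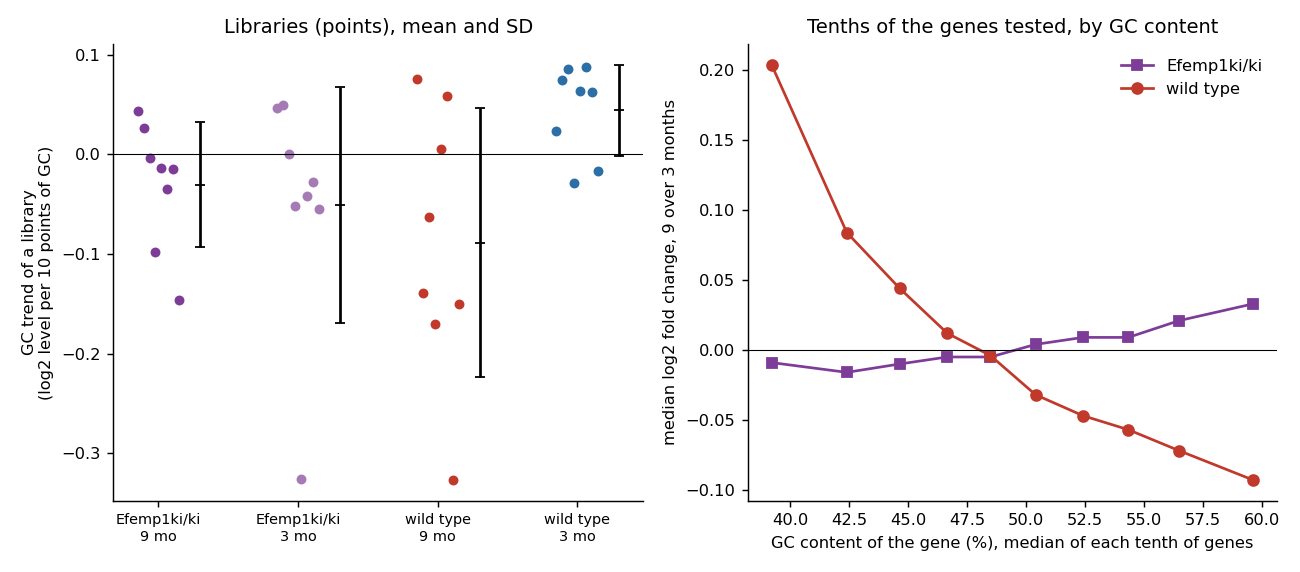
Left, the GC trend of each library (points; log2 level per 10 percentage points of GC, with mean and SD of 8) in Efemp1ki/ki and wild type, 9 months left of 3 months. Right, the median log2 fold change, 9 over 3 months, in 10 equal bins of the tested genes by GC content, which ran from -0.01 in the lowest to 0.03 in the highest bin in Efemp1ki/ki and from 0.20 to -0.09 in wild type.

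The dependence on GC content differed between the genotypes. Across genes, Spearman's correlation of the log2 fold change with GC content was 0.08 in Efemp1ki/ki and -0.35 in wild type, as a description, since genes share their libraries. In the lowest of 10 equal bins by GC content the median log2 fold change was -0.01 in Efemp1ki/ki and 0.20 in wild type. The 9-month libraries of wild type ran from -0.33 to 0.08 in their GC trend, 5 of 8 below 0, and those of 3 months from -0.03 to 0.09. How far GC content contributes to the differences by list was not tested beyond the counts with the offset. With it, 13 of 25 rod genes, 14 of 20 ganglion cell genes and 13 of 25 axon growth genes fell, and 9 of 20 basement membrane genes, 8 of 22 microglia genes and 10 of 25 complement genes rose, where 2587 of all genes tested rose (15%) and 3184 fell (18.5%).

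Levels at 17 months show which differences went on. In wild type 3716 genes (21.6%) differed between 17 and 9 months, 1764 of them higher at 17 months (10.2%). Without the libraries of extreme GC trend, 2 of them wild type at 17 months, 1232 did. The step shares the 9-month libraries with the earlier one, where they enter with the opposite sign, so a shift of those libraries alone moves the 2 steps in opposite directions. For 4966 genes (28.8%) the later step differed from the earlier one. Rdh1 measured 1.13, 3.47 and 7.69 CPM at 3, 9 and 17 months (medians), the second step being 1.12 ± 0.14 (adjusted p = 4.58e-07). Col4a4 measured 27.9, 45.0 and 52.4 CPM, with a second step of 0.28 ± 0.07 (adjusted p = 0.00440), and Csrp3 3.34, 8.498 and 11.7 CPM, with one of 0.48 ± 0.12 (adjusted p = 0.00364). For Glb1l3, with 51.3, 93.4 and 104 CPM, and Smug1, with 118, 172 and 180 CPM, the second step did not pass (0.13 ± 0.06 and 0.03 ± 0.05).

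**Figure D5:**
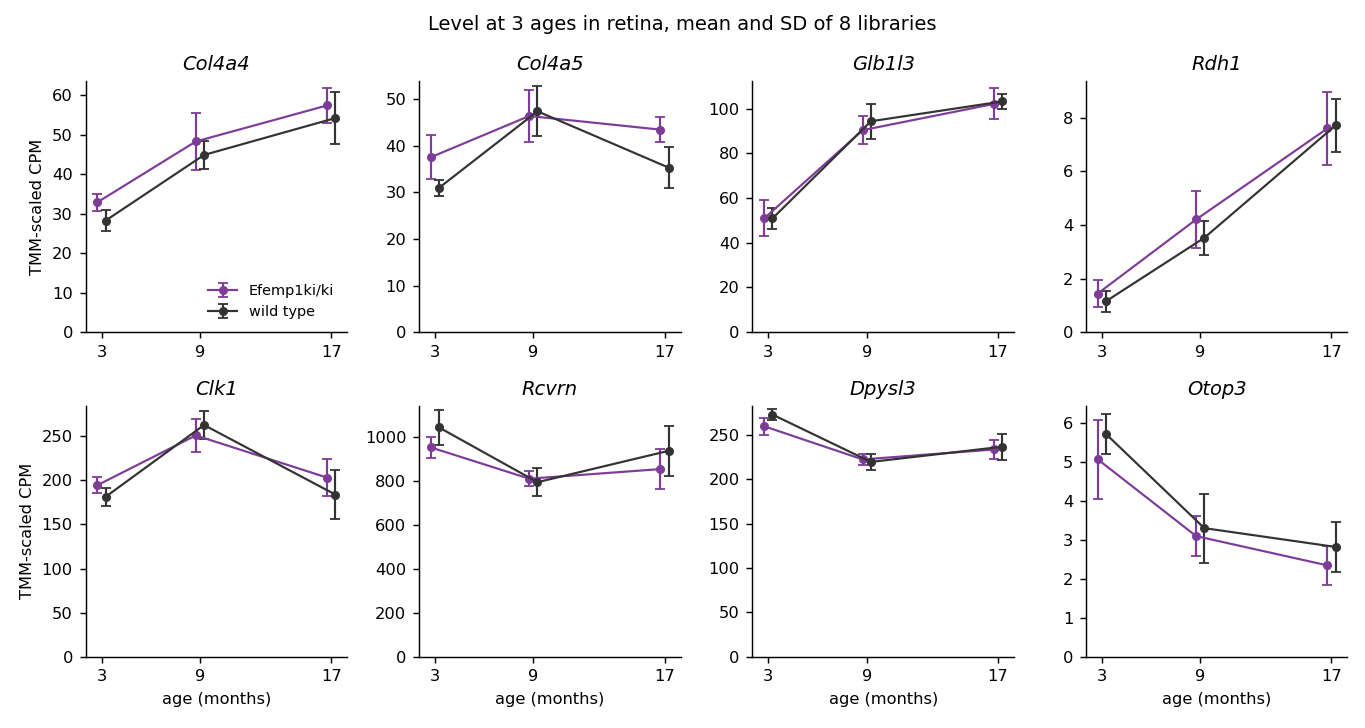
Mean TMM-scaled CPM (vertical axes, from 0) with SD of 8 libraries at 3, 9 and 17 months in Efemp1ki/ki (purple) and wild-type (black) retinas. Rdh1 and Col4a4 are higher at each later age, Clk1 and Col4a5 of wild type are highest at 9 months, and Rcvrn and Dpysl3 of wild type lowest at 9 months.

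Other genes were closer to their 3-month level again at 17 months. Col4a5 had 30.9, 47.8 and 36.5 CPM at 3, 9 and 17 months, its second step being -0.42 ± 0.07 (adjusted p = 6.97e-05). Clk1, Clk4, Ccnl1, Pnisr and Amy1 were named for having the smallest p-values of the later against the earlier step, so their return describes that choice. Clk1 had 180, 263 and 189 CPM, with a second step of -0.52 ± 0.06 (adjusted p = 1.22e-07), and Amy1 144, 232 and 183 CPM, with one of -0.40 ± 0.06 (adjusted p = 3.88e-06). Rcvrn had 1072, 817 and 907 CPM and rose in the second step by 0.24 ± 0.06 (adjusted p = 0.00335). Dpysl3 had 273, 216 and 239 CPM and rose by 0.11 ± 0.03 (adjusted p = 0.0171). Otop3, with 5.76, 3.16 and 3.04 CPM, and Tmem26, with 1.77, 0.827 and 0.596 CPM, did not rise again (-0.21 ± 0.15 and -0.34 ± 0.25). By list, 10 of 25 rod genes rose in the second step, 12 of 60 ribosomal protein genes rose and 3 fell, and 2 of 34 interferon-induced genes rose. Of all genes tested 10.2% rose and 11.3% fell in that step, so the interferon-induced share was below that of all genes. These list counts are not given for the settings in which fewer genes were called.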

How the data were processed

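RNA was isolated on RNeasy micro columns with DNase I, and TruSeq Stranded mRNA libraries were made from 200 ng of total RNA, per the labels' protocols. For 30235 genes the authors gave estimated counts, of which 20.3% were not whole within 0.01. Their deposited TPM values were used as a score, since it is the protein-coding genes that sum to 1000000. The build was GRCm38.p4, per the submitters' processing notes. No aligner, counter or strand setting was given in the sources used here. A column matching no sample (1 per file) was not used.

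Counts were rounded and tested with edgeR 4.0.16 (R 4.3.3), using TMM scaling, filterByExpr and a robust quasi-likelihood F test in 1 fit of 48 retina libraries in 6 groups, with Benjamini-Hochberg adjustment over 17240 genes. The eyecup comparison used a separate fit of 30 wild-type libraries in 4 groups. Alternatives used DESeq2 1.42.0, limma 3.58.1 and log2(TPM + 1). SE is the log2 fold change over the root of F. Replicates differed by more than sampling noise (lowest chi-square per degree of freedom 3.96 at 9 months and 3.29 at 3 months). On simulated counts for 17132 genes, with 50 genes changed at each fold, the test recovered 66%, 80%, 98% and 100% of changes of 1.25, 1.5, 2 and 4-fold. There 4.4% of 180 calls were false. The simulated libraries held no GC trend, admixed tissue or shift shared by many genes, so this share does not apply to the real calls.

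The genes named were Efemp1 and Cfb. From the called genes, predicted ones and those averaging under 0 log2 CPM left aside, came the 12 with the smallest p-values in each direction at a log2 fold change of at least 0.5 in size and the 5 of largest fold in each direction. To these came up to 6 called genes of each list and the 5 with the smallest p-values in each test of a difference between differences (genotype, later against earlier step, tissue). Acaa2, Agrn, C4b and Col4a2 were named after their values were seen. The comparison and the gene lists were chosen with earlier results of these data known. Whether the ages overlap is stated only for genes so picked, and the share over all genes tested is not given. Promoter sequences are from RefSeq, matched by symbol for 132 of 186 genes named or examined. Results for some genes are not reported here.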

Additional observations from a re-analysis of the deposited data

Results flagged for a closer look

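Among 106 sets of 8 values looked at, 11 had one far from the rest, where chance gives about 1 in 20. Replicate 7 at 3 months supplied 7 of them. These were Tnxb at 13.1 CPM, Taf4b at 26.4, Col4a1 at 58.0, Nrl at 1611, Krt6a at 44.7, Krt13 at 25.6 and Arr3 at 370 CPM (369.5). At 9 months replicate 5 was lowest for Rspo2 (0.231 CPM) and Pou4f1 (19.5 CPM), and replicate 1 highest for Krt6a (5.88 CPM). Replicate 6 at 3 months was highest for Pcp2 (44.6 CPM).

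The age difference, as log2 fold change of 9 over 3 months, differed between Efemp1ki/ki and wild-type retinas for Asun (-0.31), Gm43681 (-0.90) and 3110035E14Rik (-1.11), by a test of the difference itself.

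The age difference of the retina exceeded that of the eyecup, in the joint test, for Fndc1 (0.64), Csrp3 (1.19), Adam1b (1.197), Rdh1 (1.30), Cdh19 (1.52), Col4a3 (1.07), Col4a4 (1.05), Col4a5 (0.80), Col12a1 (1.70), Col6a1 (1.16), Col6a2 (1.18), Col1a1 (1.62), A2m (2.08), 3110035E14Rik (1.26), Ect2 (1.31) and Ccna2 (0.68). It was below that of the eyecup for Dnaic2 (-0.84), Fzd10 (-0.53), Ubxn10 (-1.25), Tmem160 (-0.61), Gngt2 (-1.03) and Ddit3 (-0.47). Gngt2 is a cone gene, and the 16 cone genes had a median of -0.76. The part of retinal transcripts carried in the eyecups was not tested.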

How the results depend on the processing

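The wild-type count of 5297 genes ran from 4690 to 6317 over all alternatives and from 4690 to 5622 with each library left out. Of 186 genes examined, 184 were called and 130 kept their call and direction in all 28 settings. Leaving out each library gave 3902 to 5285 genes for the later against the earlier step and 0 to 7 for the genotype test. The GC trend difference was -0.0968 log2 units (exact permutation p = 0.0625) among genes of at least 5 log2 CPM. In Efemp1ki/ki retinas 2516 genes were called with the GC offset, 2537 with the replicate block and the GC offset, 2468 with limma voom and 2254 on log2(TPM + 1). The genotype test called 0 genes without the low-count filter, with the GC offset, with the block and GC offset, with tissue covariates and on log2(TPM + 1), 7 with the replicate block, 14 with DESeq2 and 356 with limma voom. Between 17 and 9 months 2314 genes were called with the GC offset, 2374 with the block and GC offset, 1607 with only the groups compared and 1232 without libraries of extreme GC trend, an alternative added after seeing the data. The eyecup had 65 without the filter, 72 with the replicate block and 257 with DESeq2. The tissue difference had 90 without the filter, 116 with the replicate block, 515 with DESeq2 and 1318 with limma voom. Trim29 was at 0.0327 with tissue covariates, and Lhx2, Rax and Vim at 0.00678, 0.0254 and 0.0109 on log2(TPM + 1). The cause of these shifts was not tested. Same-numbered replicates correlated at -0.02 to 0.29 and 3 of 8 matched best with their own number, so the numbers were not taken as pairs. The replicate block gave 5432 genes in the main comparison.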
